A study of Mus musculus with 12 samples.

Results

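The endothelial adhesion molecules and identity genes comprised 10 genes, Sele, Selp, Icam1, Vcam1, Icam2, Pecam1, Cdh5, Tek, Nos3 and Vwf, chosen by symbol from the 52858 genes in the deposited tables. Each symbol matched 1 row, and all 10 were among the 15240 genes with enough reads to be tested. RNA was sequenced from mouse hearts in 4 groups with 3 libraries each. C57BL/6J hearts were either perfused throughout (C57-non-IR) or subjected to ischemia and reperfusion (C57-IR), and hearts overexpressing Slit2 (Slit2-Tg) were handled in the same ways (Slit2-non-IR and Slit2-IR). Hearts came from male mice aged 3 to 5 months and were perfused ex vivo on a Langendorff apparatus, with a buffer in place of blood. For IR, flow was stopped for 20 min after 20 min of stable perfusion and restored for 40 min, and non-IR hearts were perfused for 80 min without a stop in flow. The Slit2-Tg strain carries a full-length human Slit2 cDNA behind the CMV promoter, which is not restricted to one cell type. It was made by injection into C57 × CBA F1 oocytes, and heterozygous mice were identified by PCR. The genotype is stated in the labels. Whether a heart underwent IR is given there only as a letter code, which was read with the help of the group names in the study's methods.

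Endothelial cells line the vessels of the heart and control which blood cells stop there. When they are activated by cytokines, they place selectins on the surface, which catch passing leukocytes, and then ICAM-1 and VCAM-1, which bind leukocyte integrins and hold the cells firmly. A second set of genes is transcribed in resting endothelium, namely the junction proteins, the angiopoietin receptor, the nitric oxide synthase and von Willebrand factor. With a cell-free perfusate no leukocytes arrive during reperfusion, although those already in the tissue remain.

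Levels are given as FPKM, fragments per kilobase of gene scaled to the size of the library, which corrects for gene length. Sequencing gave 16601154 to 24841291 reads on genes per library. Mitochondrial genes took 19.7% to 26.0% of them. The mouse Slit2 row held a mean of 0.195 FPKM in C57-non-IR, 0.243 in C57-IR, 0.178 in Slit2-non-IR and 0.350 in Slit2-IR hearts. Within Slit2-IR hearts it ranged from 0.0847 to 0.813. The transgene is a human cDNA and the reads were mapped to the mouse genome, so this row does not check the genotype labels, and whether human Slit2 reads fell on it was not tested. No label names a separate animal for each library, and p-values therefore measure the spread between these libraries.

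The 30 genes of a separate endothelial list, such as Kdr, Flt1, Erg and Egfl7, were all expressed, with a mean above 1 FPKM each. Their summed level ranged from 1041 to 1286 FPKM in C57-non-IR hearts, from 694 to 1254 in C57-IR hearts, from 687 to 1121 in Slit2-non-IR hearts and from 682 to 1166 in Slit2-IR hearts. Replicate 1 had the lowest sum in each of the last 3 groups. Slit2-IR replicate 1 also stood apart in its atrial markers, with a summed level of 1695 FPKM against 26.6 to 240.4 FPKM in the other 11 libraries. In bulk RNA, fewer endothelial cells and less RNA per endothelial cell cannot be told apart. The sum uses none of the 10 genes.

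RefSeq promoter windows were given for 4 of the 10 genes. Those of Sele, Selp and Icam1 are shown because these genes differed most with IR, and the windows are the sequence around their starts. Each runs from 250 bases before to 50 bases after the RefSeq start in build GRCm38.p6, on the plus strand of the chromosome, 5′ to 3′. The Sele window is chr1:164047984-164048283, the Selp window is chr1:164115014-164115313 and the Icam1 window is chr9:21015690-21015989. Capitals mark matches to the motifs searched, which are named after the sequences.
Sele: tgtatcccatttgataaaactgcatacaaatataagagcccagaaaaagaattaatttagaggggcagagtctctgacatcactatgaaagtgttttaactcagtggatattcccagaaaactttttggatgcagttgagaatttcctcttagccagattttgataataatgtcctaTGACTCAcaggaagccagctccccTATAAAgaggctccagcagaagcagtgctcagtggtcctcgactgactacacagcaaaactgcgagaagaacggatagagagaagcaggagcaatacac
Selp: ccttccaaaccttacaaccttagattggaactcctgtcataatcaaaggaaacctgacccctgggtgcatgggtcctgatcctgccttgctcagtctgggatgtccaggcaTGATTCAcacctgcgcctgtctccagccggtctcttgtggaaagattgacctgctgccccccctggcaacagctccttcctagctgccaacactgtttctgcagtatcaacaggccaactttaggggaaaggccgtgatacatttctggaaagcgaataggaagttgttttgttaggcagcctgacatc
Icam1: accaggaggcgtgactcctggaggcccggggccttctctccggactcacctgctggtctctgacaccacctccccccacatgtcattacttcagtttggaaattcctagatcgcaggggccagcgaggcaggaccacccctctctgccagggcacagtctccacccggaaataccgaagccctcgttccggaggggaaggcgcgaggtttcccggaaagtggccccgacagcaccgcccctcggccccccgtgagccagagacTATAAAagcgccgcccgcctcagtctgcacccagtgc
The motifs searched on both strands were a stricter form of the NF-kappaB consensus, a looser form that takes in the stricter, AP-1 (TGANTCA), CRE (TGACGTCA), ETS (CNGGAAGT) and the TATA box (TATAAA). The motif searched for GATA factors was AGATAA. The Sele window held TGACTCA at position -73 and TATAAA at -49 from the RefSeq start. The Selp window held TGATTCA at -139. The Icam1 window held TATAAA at +14 from the RefSeq start, which lies 45 bases upstream of the start used in the deposited tables. TGANTCA was present in 7.81% of the 32851 mouse promoter windows of this length and TATAAA in 13.6%. The window of Tek, the other gene given, held AGATAA, as did 11.2% of all windows. Neither NF-kappaB form was found in the 4 windows, against 1.63% (stricter) and 5.56% (looser) of all windows. Both forms require GGG, so a site with other letters there would be missed. CRE was present in 1.79% and ETS in 9.53% of all windows and in 0 of these 4. A match describes letters in a window and is not a measured site, and a missing match says nothing about the factor.

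Sele (ENSMUSG00000026582) encodes E-selectin, which endothelial cells make after activation and which slows leukocytes on the vessel wall. In build GRCm38, which holds for all gene positions here, it lies on chromosome 1 from 164048234 to 164057677 on the plus strand. In C57-non-IR hearts Sele was at 0.383, 0.414 and 0.496 FPKM, and in C57-IR hearts at 3.54, 12.9 and 5.87 FPKM. Every C57-IR library was above every C57-non-IR library, the lowest being 7.14 times the highest control. The group means were 7.42 ± 4.85 FPKM (SD, n = 3) and 0.431 ± 0.0584 FPKM, a 17.2-fold difference. On the scale of log2(FPKM + 1), which understates the change of low genes, Sele was higher by 2.40 ± 0.40 (SE; adjusted p = 0.0390, limma). In the Slit2-Tg strain Sele was at 0.166, 0.447 and 0.638 FPKM without IR and at 13.5, 7.32 and 4.25 FPKM after it. Again the groups did not overlap, and the means, 0.417 ± 0.237 and 8.36 ± 4.71 FPKM, differed 20.1-fold. The fitted difference was 2.61 ± 0.40 (limma adjusted p = 0.0242). It was 2.24 without Slit2-IR replicate 1, the library with the high atrial markers (adjusted p = 0.108). The non-IR values of Sele rest on 10 to 47 reads per library, which limits its folds in both genotypes.

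Sele was the only one of the 10 genes to pass the adjusted threshold of 0.05 within a genotype. Of all tested genes, 0.459% passed in C57BL/6J hearts and 0.525% in Slit2-Tg hearts. Without Selp, described below, Sele was 1 of 9 genes in each genotype. The calls of Sele depended on single libraries. In C57BL/6J hearts Sele passed the threshold in 9 of 20 alternative fits, with adjusted p from 0.00617 to 0.153, and it was lost without replicate 2 or 3 of C57-IR, without any C57-non-IR library or without any Slit2-non-IR library. In Slit2-Tg hearts it passed in 13 of 20, with adjusted p from 0.00730 to 0.110, and it was lost without replicate 1 or 2 of Slit2-IR, without any Slit2-non-IR library or without C57-non-IR replicate 3. The fitted difference was positive in all of them, from 1.97 to 3.90 in C57BL/6J hearts and from 2.24 to 4.28 in Slit2-Tg hearts.

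**Figure D1:**
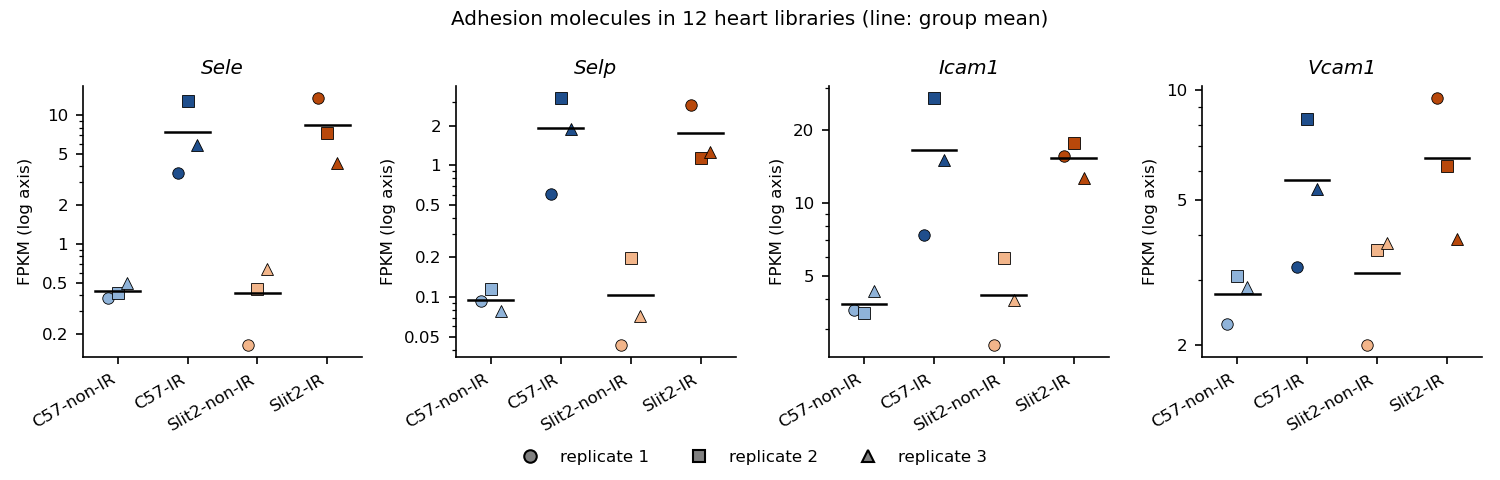
FPKM (log axis) of Sele, Selp, Icam1 and Vcam1 in each of the 12 libraries, by group. Points are libraries, their shapes give the replicate number and lines are group means. The 6 IR libraries lie above the 6 non-IR libraries for Sele, Selp and Icam1, while Vcam1 overlaps between C57-IR replicate 1 and 2 Slit2-non-IR libraries.

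Selp (ENSMUSG00000026580) encodes P-selectin, which endothelial cells store in Weibel-Palade bodies and platelets in their granules. It lies on the plus strand of chromosome 1 from 164115264 to 164150026, 57587 bases after the end of Sele. Selp was the lowest of the 10 genes, at 0.0931, 0.115 and 0.0786 FPKM in C57-non-IR hearts and 0.610, 3.22 and 1.90 FPKM in C57-IR hearts. The corresponding values were 0.0437, 0.196 and 0.0716 FPKM in Slit2-non-IR and 2.85, 1.13 and 1.25 FPKM in Slit2-IR hearts. The IR and non-IR libraries did not overlap in either genotype. The means were 19.9-fold apart in C57BL/6J hearts and 16.8-fold apart in Slit2-Tg hearts, but the non-IR values rest on only 4 to 20 reads per library. Selp passed the filter on low values through the IR hearts, since only 2 of the 6 non-IR libraries reached the minimum on their own. Its differences with IR are therefore given as descriptions, and the main counts of genes that differed with IR leave it out. The fitted differences of 1.30 ± 0.30 (limma adjusted p = 0.103) and 1.26 ± 0.30 (adjusted p = 0.0977) did not pass the threshold within a genotype. With a pseudocount of 0.1 they were 3.10 (adjusted p = 0.0311) and 3.13 (adjusted p = 0.0280). Genes that overlap Selp, Icam1, Vcam1, Cdh5 or Nos3 in position were at most 0.381 FPKM in any library.

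The FPKM ratio of Sele to Selp was 3.10 to 6.48 in the 6 IR libraries and 2.27 to 8.90 in the 6 non-IR libraries, ranges that overlapped. Both selectins were highest in the same library of each IR group, C57-IR replicate 2 and Slit2-IR replicate 1. Platelets carry Selp as well, and the summed level of 8 platelet markers, Pf4 and Itga2b among them, was 20.7 to 35.3 FPKM in C57-non-IR, 22.1 to 40.7 in C57-IR, 21.2 to 31.4 in Slit2-non-IR and 19.7 to 32.5 in Slit2-IR hearts. The sums overlapped between all groups, and 0 of the 3 tested platelet markers passed the threshold in any comparison (limma; 0 also at an unadjusted p under 0.05). The highest platelet sum of the 12 libraries, 40.7 FPKM, was in C57-IR replicate 2, which also had the highest Selp of all. The lowest platelet sum was in Slit2-IR replicate 1, which had the highest Selp of its group. The part of platelets in the level of Selp was not tested.

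Icam1 (ENSMUSG00000037405) encodes ICAM-1, a ligand of the leukocyte integrins LFA-1 and Mac-1. The gene lies on chromosome 9 from 21015985 to 21028817 on the plus strand. Icam1 was at 3.60, 3.49 and 4.33 FPKM in C57-non-IR hearts and at 7.39, 27.2 and 15.1 FPKM in C57-IR hearts. It was at 2.59, 5.94 and 3.97 FPKM in Slit2-non-IR hearts and at 15.7, 17.7 and 12.7 FPKM in Slit2-IR hearts. IR libraries were above all non-IR libraries of their genotype, and the C57-IR libraries spread more widely than the Slit2-IR libraries, with an SD of 9.99 against 2.49 FPKM. The means were 4.35-fold apart in C57BL/6J hearts and 3.69-fold apart in Slit2-Tg hearts. Within a genotype the fitted difference was 1.70 ± 0.36 in both, with limma adjusted p of 0.0805 in C57BL/6J and 0.0707 in Slit2-Tg hearts, neither under the threshold. In Slit2-Tg hearts the deviations of same-numbered libraries were weakly correlated, at 0.143 to 0.294. This pairing comes from the data and not from the labels. There the limma fit with the replicate number as a block gave an adjusted p of 0.0307 for Icam1, so that Sele and Icam1 passed. That fit also called 202 genes in all, against 80 without the block. In C57BL/6J hearts the same fit gave Icam1 an adjusted p of 0.0310, and Sele passed as well. It called 174 genes there, against 70 without the block.

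Icam2 encodes ICAM-2, a second LFA-1 ligand that resting endothelium already carries. The gene lies on the minus strand of chromosome 11 from 106377656 to 106388075, 266142 bases from Pecam1. It was at 13.2, 13.6 and 12.3 FPKM in C57-non-IR hearts, 6.80, 14.8 and 13.8 in C57-IR hearts, 7.85, 11.7 and 13.9 in Slit2-non-IR hearts and 7.19, 11.1 and 14.2 in Slit2-IR hearts. All groups overlapped, and the differences with IR were -0.20 (95% interval -0.84 to 0.44) in C57BL/6J and -0.05 (-0.69 to 0.59) in Slit2-Tg hearts. Because both genes were measured in each library, their ratio is free of differences in library scale. The FPKM ratio of Icam1 to Icam2 was 0.256 to 0.509 in the 6 non-IR libraries and 0.897 to 2.18 in the 6 IR libraries, without overlap. Icam1 exceeded Icam2 in 5 of the 6 IR libraries and in 0 of the 6 non-IR libraries.

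Vcam1 encodes VCAM-1, which binds the integrin VLA-4 on monocytes and lymphocytes and is also made by other stromal cells. The gene lies on the minus strand of chromosome 3 from 116109949 to 116129688. It was at 2.28, 3.09 and 2.88 FPKM in C57-non-IR hearts, 3.26, 8.33 and 5.36 in C57-IR hearts, 1.9998, 3.64 and 3.80 in Slit2-non-IR hearts and 9.49, 6.17 and 3.90 in Slit2-IR hearts. The groups did not overlap within a genotype, but the gaps were narrow, the lowest IR library being 1.06 times the highest control in C57BL/6J and 1.03 times in Slit2-Tg hearts. The means were 2.05-fold and 2.07-fold apart. The fitted differences of 0.76 ± 0.32 (limma adjusted p = 0.487) and 0.82 ± 0.32 (adjusted p = 0.336) did not pass.

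Without Selp, counting the genes whose IR libraries all lay above the non-IR libraries gave 3 of 9 in C57BL/6J hearts, against 6.75% of all tested genes, and 4 of 9 in Slit2-Tg hearts, against 8.65%. They were Sele, Icam1 and Vcam1 in both genotypes, with Nos3 in addition in Slit2-Tg hearts. Sele, Icam1 and Vcam1 had an unadjusted p under 0.05 in each genotype, where 8.96% and 11.2% of all tested genes did. Over both genotypes together, with 6 IR and 6 non-IR libraries in the comparison, Sele and Icam1 rose. The differences were 2.51 ± 0.28 for Sele (limma adjusted p = 0.00151) and 1.70 ± 0.26 for Icam1 (adjusted p = 0.00491). This was 2 of 9 genes, against 3.49% of tested genes in either direction and 2.34% higher. For the same 2 genes all 6 IR libraries lay above all 6 non-IR libraries, against 2.23% of tested genes, and 3 of the 9, with Vcam1, had an unadjusted p under 0.05, against 15.9%. The 10 genes were chosen with earlier results of these data known, so these comparisons with all tested genes are descriptions. The fit over both genotypes gave 1.28 ± 0.21 for Selp, a description only, since Selp was tested through its IR libraries. It was not tested when 10 reads were required in every library. Vcam1 differed by 0.79 ± 0.22 and did not pass (adjusted p = 0.0859), although it did without C57-IR replicate 1 (0.0316) or Slit2-IR replicate 3 (0.0425). Sele and Icam1 passed in all 19 alternative fits of this comparison. In an exact permutation test of the IR labels within genotype, 2-sided, with 400 relabelings, Sele, Selp, Icam1 and Vcam1 each had p = 0.005, the smallest value the test allows. The test must give this value to any gene higher without overlap in both genotypes, so it restates that separation. For Selp it is a description, and the share of all genes at this value was not computed. The other 6 genes had p from 0.115 to 0.820.

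**Figure D2:**
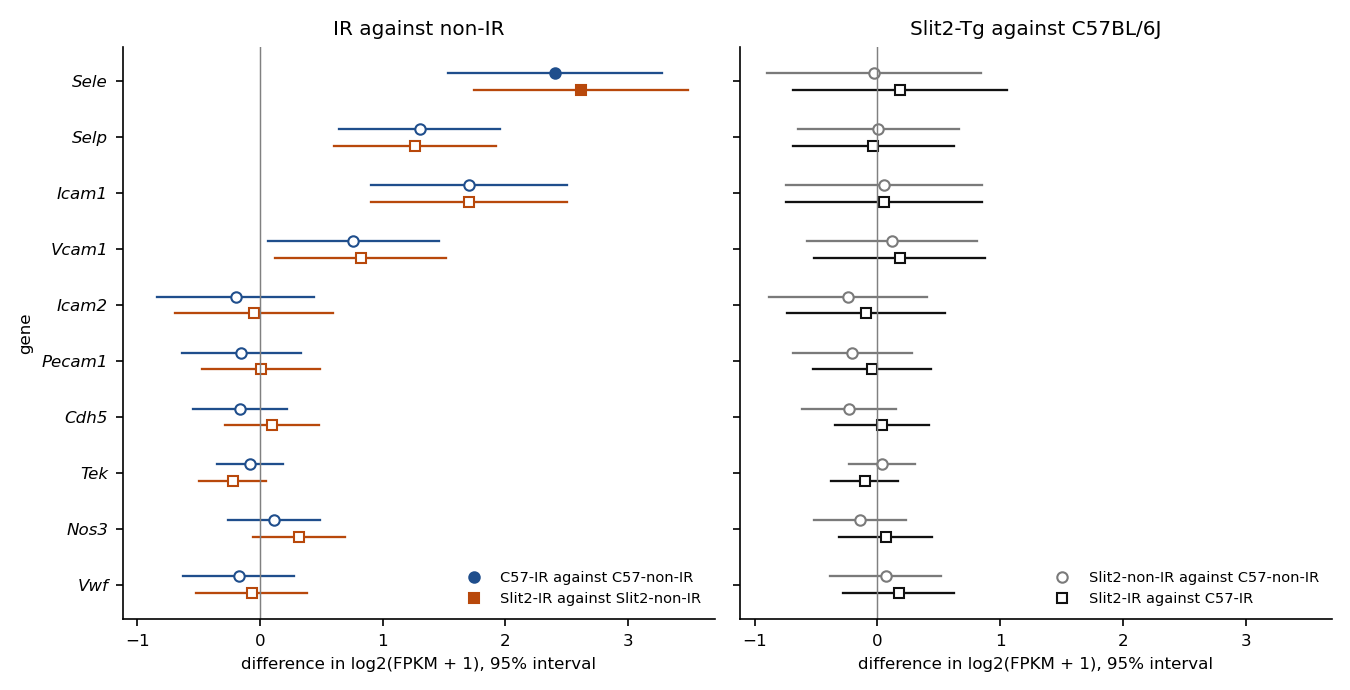
Difference in log2(FPKM + 1) with its 95% interval for each of the 10 genes, for IR against non-IR in each genotype (left) and for Slit2-Tg against C57BL/6J in each condition (right). Filled symbols have an adjusted p under 0.05, which only Sele reached, at 2.40 and 2.61. All intervals on the right include 0.

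Pecam1 and Cdh5 encode PECAM-1 and VE-cadherin, adhesion proteins of the contacts between endothelial cells. Pecam1 lies on the minus strand of chromosome 11 from 106654217 to 106750628 and Cdh5 on the plus strand of chromosome 8 from 104101625 to 104144511. Pecam1 was at 41.1, 40.5 and 37.8 FPKM in C57-non-IR hearts, 25.0, 42.1 and 43.1 in C57-IR hearts, 25.4, 40.8 and 39.4 in Slit2-non-IR hearts and 29.5, 37.1 and 38.1 in Slit2-IR hearts. Cdh5, the highest of the 10 genes in each group, was at 71.6, 64.4 and 58.1, then 46.0, 59.5 and 69.0, then 47.6, 53.9 and 64.5, and then 48.6, 60.9 and 69.2 FPKM in the same order of groups. For both genes the lowest value outside C57-non-IR hearts was always replicate 1, the library with the low endothelial sum, and IR and non-IR libraries overlapped. With IR, Cdh5 differed by -0.17 (95% interval -0.55 to 0.22) in C57BL/6J and by 0.10 (-0.28 to 0.48) in Slit2-Tg hearts. For Pecam1 the differences were -0.15 (-0.63 to 0.33) and 0.01 (-0.47 to 0.49). The FPKM ratio of Pecam1 to Cdh5 stayed between 0.533 and 0.757 in all 12 libraries.

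Tek encodes the angiopoietin receptor TIE2, and lies on the plus strand of chromosome 4 from 94739289 to 94874976. It was at 16.2, 16.5 and 16.4 FPKM in C57-non-IR hearts, 13.7, 15.1 and 17.8 in C57-IR hearts, 14.9, 19.2 and 16.7 in Slit2-non-IR hearts and 12.7, 14.2 and 16.2 in Slit2-IR hearts. Over both genotypes its difference with IR was -0.15 (95% interval -0.34 to 0.04, limma adjusted p = 0.449). IR and non-IR libraries overlapped in both genotypes. The 24 genes listed around TEK and NOS3, from angiopoietins to nitric oxide receptors, included 19 tested genes. Of these, Hsp90aa1, a chaperone of NOS3 and of many other proteins, rose in C57BL/6J hearts by 2.05 (limma adjusted p = 0.0143) and in Slit2-Tg hearts by 2.32 (adjusted p = 0.00756). Hsp90ab1, its close relative, rose over both genotypes by 0.40 (adjusted p = 0.0360). None of the other 17 passed in any comparison (limma). With IR this was 1 of 19 in each genotype, against 0.459% and 0.525% of all tested genes. Over both genotypes it was 2 of 19, against 3.49%. Over the alternative fits the calls of this list were 0 or 1 in each genotype and 1 to 3 over both.

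Nos3 encodes the endothelial nitric oxide synthase, and lies on the plus strand of chromosome 5 from 24364810 to 24384474. It was at 12.5, 8.36 and 7.56 FPKM in C57-non-IR hearts, 8.93, 12.7 and 9.07 in C57-IR hearts, 7.99, 8.51 and 8.499 in Slit2-non-IR hearts and 11.4, 9.57 and 10.98 in Slit2-IR hearts. In Slit2-Tg hearts the IR libraries lay above the non-IR libraries, the lowest being 1.12 times the highest control, and the means were 1.28-fold apart. The difference of 0.32 ± 0.17 (95% interval -0.06 to 0.69) did not pass (limma adjusted p = 0.545). In C57BL/6J hearts the groups overlapped and the difference was 0.11 (-0.26 to 0.49). Relative to the endothelial sum, Nos3 overlapped between IR and non-IR libraries in both genotypes.

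Vwf encodes von Willebrand factor, the main cargo of Weibel-Palade bodies, and lies on the plus strand of chromosome 6 from 125546774 to 125686679. It was at 5.34, 6.56 and 7.72 FPKM in C57-non-IR hearts, 6.08, 7.12 and 4.08 in C57-IR hearts, 5.54, 8.43 and 6.80 in Slit2-non-IR hearts and 6.24, 8.10 and 5.36 in Slit2-IR hearts. The groups overlapped, and the differences with IR were -0.17 (95% interval -0.62 to 0.28) and -0.07 (-0.52 to 0.38). Of 19 other listed genes for the content and release of these bodies, such as Angpt2, Edn1 and Rab27a, 0 passed the threshold in any comparison (limma), with 1 at an unadjusted p under 0.05 in C57BL/6J hearts and 4 in Slit2-Tg hearts with IR, against 8.96% and 11.2% of all tested genes. The most abundant of them, Igfbp7 and S100a10, differed over both genotypes by 0.22 (adjusted p = 0.725) and 0.20 (adjusted p = 0.775).

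**Figure D3:**
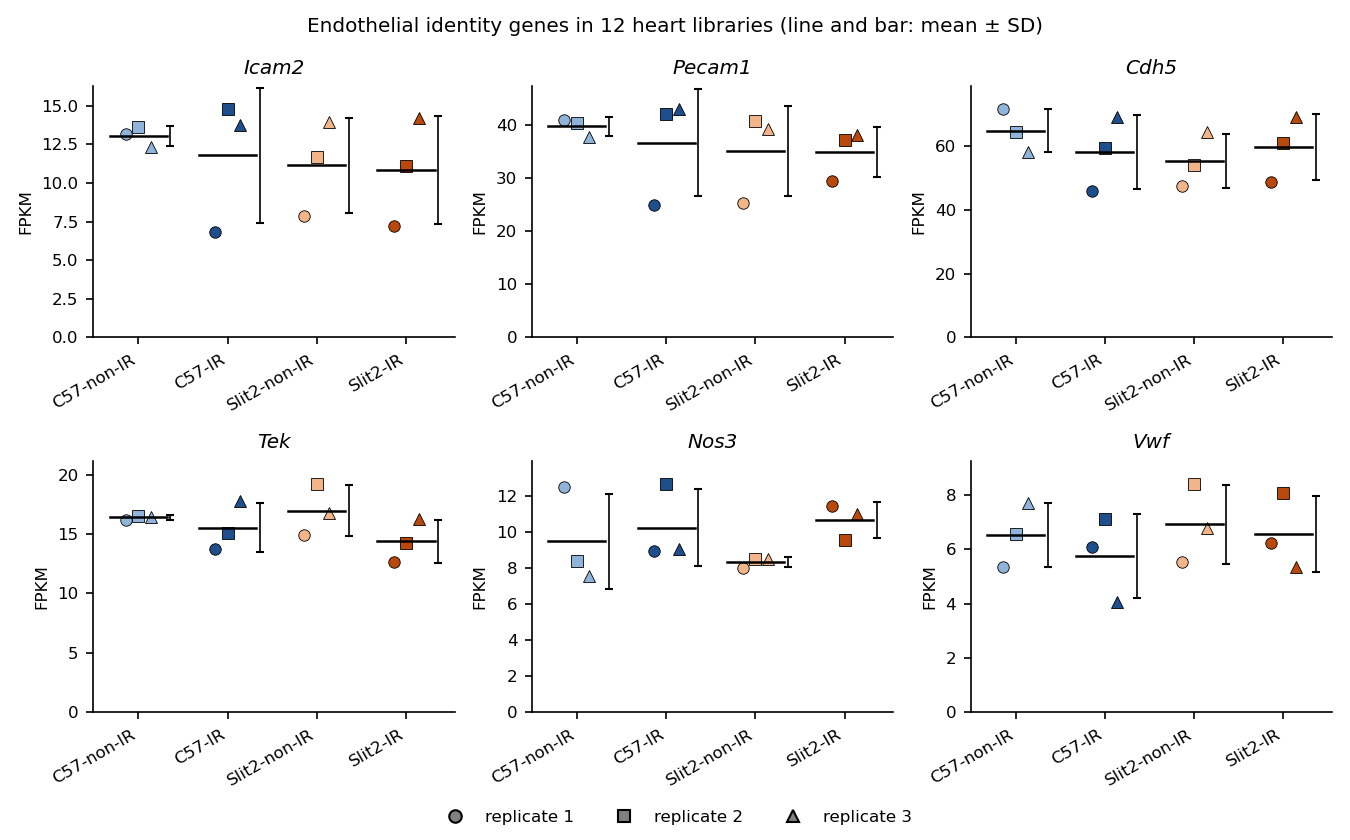
FPKM of Icam2, Pecam1, Cdh5, Tek, Nos3 and Vwf in each of the 12 libraries, by group, on axes that start at 0. Points are libraries, horizontal lines are group means and bars are ± 1 SD. Within a genotype IR and non-IR libraries overlap except for Nos3, where the Slit2-IR libraries, from 9.57 to 11.4, lie above the Slit2-non-IR libraries, from 7.99 to 8.51.

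The order of the levels changed with IR. In C57-non-IR hearts it was Cdh5, Pecam1, Tek, Icam2, Nos3, Vwf, Icam1, Vcam1, Sele and Selp, from a mean of 64.7 to 0.0957 FPKM. Neighbouring genes in that order did not overlap, except Icam2 with Nos3 and Nos3 with Vwf. Slit2-non-IR hearts had the same order of means, with overlaps also between Vwf and Icam1, Icam1 and Vcam1, and Sele and Selp. In both IR groups Icam1 stood after Cdh5 and Pecam1, at a mean of 16.5 and 15.4 FPKM, and Sele stood after Nos3, ahead of Vwf and Vcam1. In C57-IR hearts 7 of the 9 neighbouring pairs overlapped, the exceptions being Cdh5 with Pecam1 and Vcam1 with Selp. In Slit2-IR hearts the pairs from Icam1 down to Vcam1 overlapped. These orders are descriptions, without a test.

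The comparisons between genotypes addressed whether Slit2 overexpression altered these genes in perfused or in reperfused hearts. None of the 10 genes passed the threshold in Slit2-non-IR against C57-non-IR hearts (limma), 0 had an unadjusted p under 0.05, and 0 were without overlap. The backgrounds were 0.0394% called, 3.19% at the unadjusted threshold and 9.2% without overlap in either direction. The same 3 counts were 0 in Slit2-IR against C57-IR hearts, with backgrounds of 0.0459%, 3.16% and 6.47%. The estimates ran from -0.24 for Icam2 to 0.12 for Vcam1 without IR and from -0.10 for Tek to 0.18 for Sele after IR. The intervals are wide for the adhesion genes. After IR, Sele differed by 0.18 (95% interval -0.69 to 1.06), Icam1 by 0.06 (-0.74 to 0.86), Vcam1 by 0.18 (-0.51 to 0.88) and Selp by -0.03 (-0.69 to 0.63). They are narrower for Tek, which differed by -0.10 (-0.37 to 0.17), and for Cdh5, which differed by 0.04 (-0.34 to 0.42). These estimates moved with single libraries. Without C57-IR replicate 1, which was lowest of its group for 9 of the 10 genes, the differences after IR were -0.18 for Sele, -0.40 for Selp, -0.39 for Icam1, -0.10 for Vcam1, -0.41 for Icam2, -0.29 for Pecam1 and -0.12 for Cdh5. Without Slit2-IR replicate 1 they were -0.19 for Sele, -0.30 for Selp, 0.04 for Icam1, -0.09 for Vcam1, 0.15 for Icam2, 0.07 for Pecam1 and 0.18 for Cdh5. None had an adjusted p under 0.05 in either fit (limma, 0.932 and above). No difference was detectable with 3 libraries a group, and the intervals give the sizes that remain possible.

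The interaction term, which asks whether the difference with IR itself differed between genotypes, called 0 of the 10 genes (limma, 0 at an unadjusted p under 0.05), against 0 called and 1.86% at the unadjusted threshold among all tested genes. The estimate was 0.21 (95% interval -1.02 to 1.44) for Sele, -0.04 (-0.97 to 0.89) for Selp, 0.00 (-1.13 to 1.13) for Icam1 and 0.06 (-0.92 to 1.04) for Vcam1. Cdh5 had the smallest unadjusted p, 0.303, with an estimate of 0.27 (-0.28 to 0.81).

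Each of the 4 adhesion genes was also compared relative to the endothelial sum. Per 1000 FPKM of the 30 endothelial genes, Sele was at 0.315 to 0.476 in C57-non-IR and 4.68 to 10.96 in C57-IR hearts, an 18.6-fold difference of means. It was at 0.241 to 0.569 in Slit2-non-IR and 4.28 to 19.8 in Slit2-IR hearts, a 24.5-fold difference, with the highest value in Slit2-IR replicate 1. On this scale Selp was 21.2-fold and 20.2-fold, Icam1 4.66-fold and 3.91-fold, and Vcam1 2.28-fold and 2.36-fold higher after IR in C57BL/6J and Slit2-Tg hearts. The Slit2-Tg ratios rested in part on Slit2-IR replicate 1, which had the lowest endothelial sum and the high atrial markers. Without it they were 12.8-fold for Sele, 10.5-fold for Selp, 3.22-fold for Icam1 and 1.41-fold for Vcam1. Without C57-IR replicate 1, the C57BL/6J ratios were 21.1-fold, 26.4-fold, 5.37-fold and 2.42-fold. With all 12 libraries, the 6 IR and the 6 non-IR libraries did not overlap for any of these 4 genes, Vcam1 included. The share of all genes without overlap on this scale was not computed, so these separations are descriptions. Selp was also tested through its IR libraries. Between the non-IR groups, Vcam1 was 1.39-fold higher in Slit2-non-IR hearts on this scale, without overlap, while in FPKM those groups overlapped. The sum used as divisor had a mean of 948 FPKM in Slit2-non-IR and 1181 in C57-non-IR hearts. The other 6 genes had IR to non-IR ratios of means from 0.854 to 1.31 on this scale and overlapped in every comparison with IR.

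**Figure D4:**
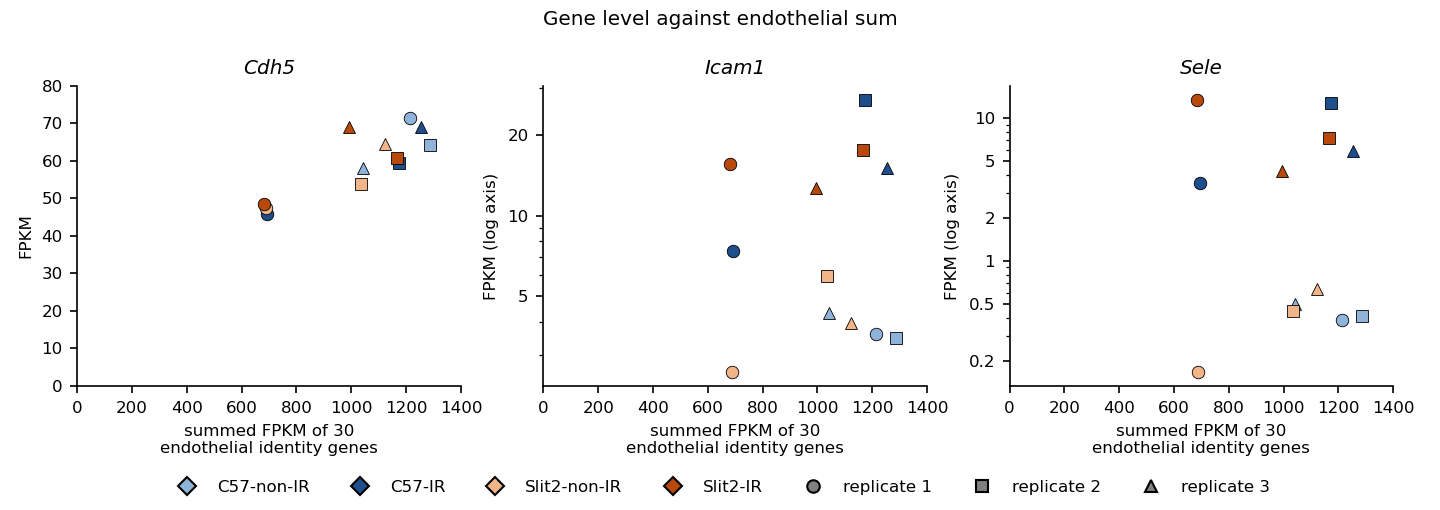
FPKM of Cdh5 (linear axis), Icam1 and Sele (log axes) against the summed FPKM of 30 endothelial identity genes in the 12 libraries. Cdh5 is lowest, at 46.0 to 48.6, in the 3 libraries with a sum of 682 to 694, while Icam1 and Sele are higher in the IR than in the non-IR libraries at low and at high sums.

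Of the 10 genes, 4 adhesion and 3 identity genes, grouped after their values were seen, varied together within each group. Over the 12 libraries, Pearson's r of log2(FPKM + 1) was 0.89 to 0.97 between Sele, Selp, Icam1 and Vcam1, and 0.84 to 0.94 between Icam2, Pecam1 and Cdh5. Between those groups of genes it was -0.12 to 0.19. After the group means were removed, the ranges were 0.76 to 0.95, 0.84 to 0.93 and -0.04 to 0.75. The upper end of the last range was Icam1 with Pecam1. Sele and Vcam1 followed each other most closely in the 6 IR libraries, with r = 0.99. Libraries share depth and tissue composition across all genes, and these correlations are descriptions.

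Of 11183 genes with a mean of at least 1 FPKM, the 5 with a pattern over the 12 libraries most like that of Sele were Myc, Tnfaip6, Uap1, Hbegf and Ugdh, with r from 0.98 to 0.99. Those most like Selp were Uap1, Ptx3, Nfkbie, Has1 and Tnfaip6, from 0.98 to 0.99. Those nearest to Icam1 were Gadd45g, Gla, Casp4, Litaf and Tgif1 (0.98), and those nearest to Vcam1 were Bcr, Tlr2, Boc, Tnfaip6 and Itpkc (0.92 to 0.93). Tnfaip6 was among the 5 for Sele, Selp and Vcam1. For Cdh5 they were Sh3tc2, Esam, Gng11, Rin3 and Bri3 (0.93 to 0.95), and for Icam2 and Pecam1 they shared Myl12b and Jcad (0.94 to 0.97). For Tek they were Ggta1, Polk, Thap2, Ppp1r16b and Ttf1 (0.91 to 0.93), for Nos3 Atp6v1f, Cryab, Mrps28, Crtc2 and Btf3 (0.88 to 0.89), and for Vwf they included Ing5, Dnal1, Cep78 and Tbcel (0.84 to 0.89).

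A list for cytokine activation held cytokines, chemokines, receptors, NF-kappaB factors and inhibitors of their signaling, among others. Of its 22 genes 21 were tested. Which of them act upstream of the adhesion genes in these hearts was not tested. The list was chosen with earlier results of these data known, so its comparison with all tested genes is a description. In C57BL/6J hearts 3 passed the threshold, all higher after IR, against 0.407% of all tested genes higher. In Slit2-Tg hearts 4 passed, all higher, against 0.446%. Over both genotypes 12 of the 21 passed, all higher, against 2.34% of all tested genes, and the median difference of the 21 was 0.67, against 0.00 over all tested genes. Over the alternative fits the 3 counts ranged from 0 to 10, from 0 to 9 and from 9 to 14. Il6, which encodes interleukin-6, had means of 0.291 and 15.5 FPKM in C57-non-IR and C57-IR hearts and 0.386 and 11.2 FPKM in Slit2-non-IR and Slit2-IR hearts, and it rose in both genotypes (limma adjusted p = 0.0143 and 0.0181). Tnfaip3, an inhibitor of NF-kappaB signaling, rose by 1.75 in C57BL/6J (adjusted p = 0.0143) and by 1.67 in Slit2-Tg hearts (adjusted p = 0.0181). Tnf, which encodes TNF-alpha, an inducer of E-selectin and ICAM-1, rose by 2.32 in C57BL/6J hearts (adjusted p = 0.0463) and differed by 1.86 in Slit2-Tg hearts (adjusted p = 0.0781). The transcription factors Irf1 and Relb passed in Slit2-Tg hearts (1.45 and 0.89, adjusted p = 0.0491 and 0.0418). Irf1 differed by 1.29 and Relb by 0.67 in C57BL/6J hearts (adjusted p = 0.0785 and 0.114). Nfkb2 rose over both genotypes by 0.64 (adjusted p = 0.00637). None of the 21 passed in the comparisons of genotypes or in the interaction (limma, 0 at an unadjusted p under 0.05 in each).

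The receptors and further ligands of leukocyte adhesion, 25 genes such as Selplg, Itgal, Itgb2 and Cd44, included 20 tested genes, and 0 passed in any comparison (limma, with at most 1 at an unadjusted p under 0.05 in each, and 0 or 1 called in the alternative fits). The most abundant, Itgb1 and Podxl, differed with IR over both genotypes by 0.12 (adjusted p = 0.519) and -0.22 (adjusted p = 0.366). The list of 12 leukocyte markers summed to 17.7 to 30.02 FPKM over all libraries, and IR and non-IR libraries overlapped. Only 5 of the 12 had enough reads to be tested, and 0 of these passed in any comparison (limma, 0 with IR at an unadjusted p under 0.05). Between Slit2-IR and C57-IR hearts 1 of the 5 was lower at an unadjusted p under 0.05, against 3.16% of all tested genes. There 0 of the 5 were higher, with a median difference of -0.15. Ly6g, a marker of neutrophils, was listed at 0 in every library. The part of leukocytes in the levels of Icam1 was not tested.

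Of the 30 endothelial identity genes, 0 passed within a genotype (limma, 4 at an unadjusted p under 0.05 in C57BL/6J and 2 in Slit2-Tg hearts, against 8.96% and 11.2% of all tested genes), and 25 of 30 were lower in C57-IR than in C57-non-IR hearts, with a median difference of -0.23. In Slit2-Tg hearts 15 of 30 were lower after IR, with a median of -0.02. Over all tested genes the median differences were 0.00 and 0.01. Clec14a, a C-type lectin of endothelial cells, fell over both genotypes by 0.52 on the log2 scale (limma adjusted p = 0.0422), the only one of the 30 to pass, and 0 to 3 of the 30 passed in the alternative fits. Over all tested genes 3.49% passed in this comparison, so 1 of 30 is close to the background. In Slit2-non-IR against C57-non-IR hearts 28 of the 30 were lower, with a median of -0.27 and 0 called (limma, 0 at an unadjusted p under 0.05). The medians moved with replicate 1 of the groups. Without C57-IR replicate 1 the median in C57BL/6J hearts was -0.04, with 17 of 30 lower. In Slit2-Tg hearts the median with IR was 0.16 without Slit2-IR replicate 1 and -0.21 without Slit2-non-IR replicate 1. Without Slit2-non-IR replicate 1 the median between the non-IR groups was -0.12. Among 20 tested genes of the endothelial junction, 0 passed in any comparison (limma, 5 at an unadjusted p under 0.05 with IR in C57BL/6J and 2 in Slit2-Tg hearts, against 8.96% and 11.2% of all tested genes). The most abundant, Ctnna1 and Ctnnb1, differed with IR over both genotypes by 0.22 (adjusted p = 0.210) and 0.03 (adjusted p = 0.920).

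Markers of other cell types were summed in the same way. Mural cell markers ranged from 190 to 368 FPKM, endocardial markers from 7.68 to 20.5 and lymphatic markers from 26.5 to 64.0 over the 12 libraries. Fibroblast markers, which mark a stromal cell type, ranged from 109 to 173 FPKM in C57-non-IR, 120 to 219 in C57-IR, 156 to 201 in Slit2-non-IR and 184 to 199.97 in Slit2-IR hearts. With IR, 7 of 7 were higher in C57BL/6J hearts (median difference 0.25) and 4 of 7 in Slit2-Tg hearts (0.36). These medians moved with single libraries. In C57BL/6J hearts the median was 0.08, with 4 of 7 higher, without C57-non-IR replicate 1 and 0.58 without C57-IR replicate 1. In Slit2-Tg hearts it was 0.06 without Slit2-non-IR replicate 1 and 0.30 without Slit2-IR replicate 1. Over both genotypes 0 of the 7 passed and 2 had an unadjusted p under 0.05, against 15.9% of all tested genes (limma, 0 to 2 called in the alternative fits). The part of fibroblasts in the level of Vcam1 was not tested. Cardiomyocyte markers ranged from 12552 to 19090 FPKM. Erythroid markers were 1.47 to 12.9 FPKM in IR libraries and 4.53 to 49.0 in non-IR libraries, and 0 of the 4 tested passed (limma). Over both genotypes 2 of the 4 were lower at an unadjusted p under 0.05, against 15.9% of all tested genes in either direction. Within each genotype 0 were. Lung markers were 0.279 to 9.74 FPKM in C57-non-IR, 0.246 to 11.2 in C57-IR, 0.140 to 12.4 in Slit2-non-IR and 0.121 to 0.257 in Slit2-IR hearts. Between Slit2-IR and C57-IR hearts 2 of 3 tested lung markers were lower at an unadjusted p under 0.05, against 3.16% of all tested genes, with a median difference of -1.24 and 0 called (limma). All 5 tested atrial markers were higher after IR in both genotypes and 0 passed (limma, 0 at an unadjusted p under 0.05). In Slit2-IR hearts the atrial sum was 1695 FPKM in replicate 1 and 70.8 and 102 FPKM in the others. Of the lymphatic markers 1 of 6 passed over both genotypes, against 2.34% of all tested genes called higher, namely Pdpn, which encodes podoplanin and differed by 0.90 (adjusted p = 0.00857). It is named after its value was seen. Over both genotypes 3 of the 6 lymphatic markers were higher, with a median difference of 0.03. The part of these cell types in the levels of the 10 genes was not tested.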

How the data were processed

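RNA was extracted from mouse hearts, and 12 paired-end Illumina libraries were made with a NEBNext Ultra kit. Per the submitters' processing notes, reads were aligned with HISAT2 to mm10. The counting tool, annotation release and use of strand are not given in the sources used here. The deposited values are FPKM per gene and library, made by the authors with no pooling. In every library FPKM times gene length was a whole multiple of 1 step for 100% of genes (tolerance 0.1 of a step), which gave back the reads. The steps followed median-of-ratios size factors rather than library totals. TMM factors differed from them by at most 0.0331 on the log2 scale.

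A gene was tested if 3 or more libraries held the FPKM that 10 reads make in a library of median scale, and if it had 15 reads in all, which left 15240 genes. Selp is the only one of the 10 genes that reached 10 reads in some libraries and not in others. The test was limma (version 3.58.1, R 4.3.3) with a trended prior on log2(FPKM + 1), on 12 libraries and 4 group means. p-values were adjusted by the Benjamini-Hochberg method over all tested genes, with a threshold of 0.05. Intervals are 95% intervals of that fit and have 11.1 degrees of freedom. The fit was first tested on simulated data. Tables were read with pandas 2.3.3 in Python 3.11.15, and the exact permutation test exchanged IR labels within genotype. Counts of calls with no adjustment are given as unadjusted p under 0.05.

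The alternatives were a pseudocount of 0.1, no filter, 10 reads in every library, TMM scaling, a robust prior, the replicate number as a block, fits of only the groups compared, voom on the recovered reads and leaving out each library. The pairing check correlated the deviations of same-numbered libraries from their group means. It gave 0.143 to 0.294 for Slit2-IR with Slit2-non-IR, and 0.154 to 0.362 for Slit2-IR with C57-IR, all 3 pairs over 0.1 in each. For the other 2 pairs of groups, 2 of 3 pairs were over 0.1. The pairing there comes from the data and not from the labels.

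The members and the gene lists were chosen with earlier results of these data known. Named genes outside the 10 are the called genes of each list, at most 6 by adjusted p, or the 2 most abundant genes of a list with none, and the 5 genes most like each of the 10. Promoter sequences are from RefSeq (GRCm38.p6). Protein sequences were not used here. Some results that the rules above would give are not reported here.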

Additional observations from a re-analysis of the deposited data

How the results depend on the processing

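Over both genotypes Sele and Icam1 passed the adjusted threshold in all 19 alternatives, with adjusted p from 0.000288 to 0.00730 and from 0.000339 to 0.0204 (limma). Of 1174 recomputed values of the 10 genes, 1143 stayed on the same side of the threshold, 18 lost and 13 gained a call, and 85 values that were never called changed sign. Of the 10 genes, the number called with IR was 0 in each genotype with no filter and 2 in each with a pseudocount of 0.1. In C57BL/6J hearts it was 0 with only the groups compared and 0 with voom, and in Slit2-Tg hearts 2 with voom. With the replicate block it was 2 in each genotype. Leaving out 1 library gave 0 to 3 in each genotype, the 3 being Sele, Icam1 and Selp, reached without C57-IR replicate 1 in both genotypes and without C57-IR replicate 2 in Slit2-Tg hearts. The counts of this paragraph include Selp, whose calls are descriptions, since it was tested through its IR libraries.

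Among all tested genes, the calls with IR in C57BL/6J hearts, 70 as reported, were 7 with no filter, 9 with only the groups compared, 174 with the replicate block, 32 with voom and 3 to 254 without 1 library. In Slit2-Tg hearts, 80 as reported, they were 19 with no filter, 202 with the block, 121 with voom and 4 to 180 without 1 library. Over both genotypes, 532 as reported, they were 299 with no filter and 329 to 713 without 1 library. For Slit2-non-IR against C57-non-IR, 6 as reported, they were 10 with a pseudocount of 0.1, 11 with no filter, 3 with 10 reads in every library, 2 with the block and 1 to 14 without 1 library. For Slit2-IR against C57-IR, 7 as reported, they were 3 with 10 reads in every library, 4 with only the groups compared and 4 to 12 without 1 library. The interaction called 4 genes with no filter and 0 to 1 without 1 library. The block changed no call of the 10 genes other than Icam1 with IR. No filter raised the genes tested from 15240 to 28242, and the cause of the other changes was not tested.

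The exact permutation test, repeated with a pseudocount of 0.1 and without each library as alternatives chosen after seeing the data, gave p under 0.05 for 4 genes and for 4 to 5 genes. Selp, given as a description, is among them. Ratios to the endothelial sum without a replicate 1 and counts without Selp were also added after seeing the data. The low reads of Selp, 4 to 20 in non-IR libraries, and of Sele, 10 to 47, limit their folds. The comparisons of genotypes are limited by 3 libraries a group. Where an arm had 2 libraries left, its spread was taken from all groups.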
